A study of Mus musculus with 15 samples.

Results

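The Schlafen genes examined here are Slfn1, Slfn2, Slfn3, Slfn4, Slfn5, Slfn8 and Slfn9, 7 genes of the mouse family chosen by name out of 24015 genes in the deposited count table. Slfn14, the pseudogene Slfn10-ps and the related Slfnl1 are also in the table and are not counted among these members. All 7 members passed the filter on low counts and were tested among 13578 genes. Transcripts were measured by RNA sequencing of regulatory T cells (Tregs) sorted as CD45+ CD3+ CD4+ YFP+ cells from adult C57BL/6 mice, in 15 libraries that form 5 groups of 3. Every mouse carried Foxp3 cre-eyfp, which places Cre recombinase and a yellow fluorescent protein under the Foxp3 gene, so the controls carried it as well. Mice with this allele alone are called WT here, and mice that also carried Rora fl/fl, a floxed gene for the nuclear receptor RORα, are called cKO. The groups were WT Tregs from axillary lymph nodes (LN), WT and cKO Tregs from untreated skin, and WT and cKO Tregs from skin treated with MC903. MC903 is calcipotriol, a vitamin D analogue that provokes an allergic type of skin inflammation, given here to the ears every other day for 4 applications. Untreated skin came from the back and the ears and MC903 skin from the ears alone, so treatment and skin site cannot be told apart. Skin was digested with enzymes for 90 min and LN were homogenised, so tissue and preparation cannot be told apart either. No group treated with the solvent alone was analysed here.

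Schlafen proteins are found in mammals and are best known from immune cells, where many are induced by interferon. Mouse members fall into a short form (Slfn1 and Slfn2), an intermediate form (Slfn3 and Slfn4) and a long form with a helicase-like end (Slfn5, Slfn8 and Slfn9). In mouse T cells Slfn1 restrains growth when overexpressed, and Slfn2 is needed to keep resting T cells quiescent and protects transfer RNA from stress-induced cleavage.

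The genes form a single cluster on chromosome 11 in the order Slfn5, Slfn9, Slfn8, Slfn10-ps, Slfn2, Slfn1, Slfn4, Slfn3 and Slfn14. Promoters of the members are shown because members that lie next to each other had different patterns of level in skin. RefSeq windows (build GRCm38.p6) of 300 bases, from 250 before to 50 after a transcription start, were matched for 7 of 7 members. In the windows below the capitals mark ACTTCCTG, the core bound by ETS factors, in Slfn1 (chr11:83116570-83116869, plus strand) and Slfn2 (chr11:83064862-83065161, plus strand). They mark the core of the interferon-stimulated response element (ISRE), searched as GAAA, any 2 bases and GAAA, in Slfn5 (chr11:82951852-82952151, plus strand), Slfn8 (chr11:83020761-83021060, minus strand, the window whose element lies nearest the start) and Slfn9 (chr11:82991781-82992080, minus strand). In Slfn8 and Slfn9 the element was read on the opposite strand of the gene.
Slfn1: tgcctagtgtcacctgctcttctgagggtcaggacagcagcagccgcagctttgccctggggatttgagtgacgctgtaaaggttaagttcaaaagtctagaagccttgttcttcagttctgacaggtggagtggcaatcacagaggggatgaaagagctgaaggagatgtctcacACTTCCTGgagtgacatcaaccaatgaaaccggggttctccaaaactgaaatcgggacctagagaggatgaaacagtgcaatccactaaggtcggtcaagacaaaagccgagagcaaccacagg
Slfn2: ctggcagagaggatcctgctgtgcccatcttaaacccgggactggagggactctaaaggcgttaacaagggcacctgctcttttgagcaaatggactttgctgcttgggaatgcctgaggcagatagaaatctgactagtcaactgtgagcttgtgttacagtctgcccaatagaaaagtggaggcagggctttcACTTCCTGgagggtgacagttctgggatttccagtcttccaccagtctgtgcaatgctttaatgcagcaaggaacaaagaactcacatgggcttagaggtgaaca
Slfn5: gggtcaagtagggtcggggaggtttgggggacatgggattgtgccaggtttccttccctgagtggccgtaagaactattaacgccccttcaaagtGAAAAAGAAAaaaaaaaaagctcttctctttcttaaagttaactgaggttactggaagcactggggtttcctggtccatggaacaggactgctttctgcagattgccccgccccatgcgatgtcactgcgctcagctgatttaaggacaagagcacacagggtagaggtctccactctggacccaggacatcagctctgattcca
Slfn8: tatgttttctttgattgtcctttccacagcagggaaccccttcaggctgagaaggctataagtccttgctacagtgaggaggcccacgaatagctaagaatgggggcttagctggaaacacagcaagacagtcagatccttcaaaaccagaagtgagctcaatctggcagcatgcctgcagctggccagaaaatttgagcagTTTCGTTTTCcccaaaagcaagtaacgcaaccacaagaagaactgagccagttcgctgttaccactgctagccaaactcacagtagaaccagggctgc
Slfn9: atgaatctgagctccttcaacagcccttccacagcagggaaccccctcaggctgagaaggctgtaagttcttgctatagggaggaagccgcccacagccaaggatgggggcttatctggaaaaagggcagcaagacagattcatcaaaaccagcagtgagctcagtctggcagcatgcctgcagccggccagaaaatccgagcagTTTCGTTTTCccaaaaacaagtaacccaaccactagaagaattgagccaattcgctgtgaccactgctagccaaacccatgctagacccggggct
The ETS core was found in 4 of 7 members, namely all those of the short and intermediate forms, and on either strand in 3.33% of all 32851 windows. Its first base lay 74 bases before the start in Slfn1 (position -74), and at -55 in Slfn2 and -73 in Slfn4. Slfn3 held it at -60 and at -42. The ISRE core was found in the 3 long members and in 3.44% of windows, at -155 in Slfn5, at -48 in the Slfn8 window shown and at -45 in Slfn9. The Slfn8 and Slfn9 windows shared 248 of 292 aligned bases (84.9%), more than any other pair of members, whose identity ran from 51.9% to 67.3%. The ETS motif was chosen after the windows had been read. TTCNNNGAA (the STAT site GAS, in 8.3% of windows), TAGGTCA (a ROR response element, 2.61%) and GTAAACA (a FOXO site, 3.65%) were not found in these windows. No overlap between the motifs occurred in the windows shown, and a match describes letters and not a bound site.

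Depth ran from 19.8 to 27.7 M counts per library. Levels are counts per M of the library size after TMM scaling (CPM), M being the mega prefix. Cd3e, part of the T cell receptor complex, stood at 772 to 1661 CPM and Cd4 at 230 to 452 CPM in every library. Foxp3, which defines Tregs, stood at 110 to 202 CPM in the skin libraries and at 16.2 to 41.8 CPM in the LN libraries. Rora, the floxed gene, was at 1327, 1341 and 1510 CPM in the WT libraries and 822, 1074 and 1199 CPM in cKO untreated skin. After MC903 it was at 813, 739 and 812 CPM in the WT libraries and 632, 492 and 473 CPM in cKO, so its transcript remained in the cKO libraries. Which exons are floxed is not given in the sources used here, and a count over the whole gene does not show their deletion. Averaged over treatments Rora was lower in cKO by a log2 change of -0.50 ± 0.10 (SE, edgeR adjusted p = 0.0193). The labels call the libraries of a group biological replicates, and the p-values measure the spread between these samples.

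Slfn2 was the most abundant member in every group, and Slfn1 was the member that differed most between tissues. Per kb of exon, the mean Slfn2 level was 512 CPM in LN and 164 CPM in WT skin, against 196 and 8.76 CPM for Slfn1. Slfn8 (26.6 and 7.58 CPM per kb) and Slfn5 (12.6 and 2.48 CPM per kb) followed. Slfn9 (2.64 and 0.898), Slfn3 (1.92 and 1.01) and Slfn4 (0.229 and 0.247 CPM per kb) were lowest. The CPM of the 7 members summed to 1420 ± 223 in LN and 343 ± 49.2 in WT skin (mean ± SD, n = 3). Slfn1 made up 25.6% of that sum in LN and 4.72% in WT skin.

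The first comparison asks how Tregs of skin and LN differ, in WT mice without MC903. 5 of 7 members were lower in skin (Slfn1, Slfn2, Slfn5, Slfn8 and Slfn9) and none was higher, where 28.8% of all genes tested were lower and 57.6% were called in either direction. The median log2 change of the 7 was -1.64, against 0.0074 over all genes tested. The largest change was that of Slfn1, the growth-restraining short member.

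Slfn1 stood at 397, 424 and 276 CPM in the LN libraries and at 15.7, 8.71 and 24.6 CPM in WT skin. All LN libraries lay far above all skin libraries, a log2 change of -4.49 ± 0.31 (SE, n = 3 per group, edgeR adjusted p = 1.08e-08), which is 22.5-fold lower in skin. Slfn2, the quiescence factor, stood at 892, 961 and 701 CPM in LN and at 222, 279 and 318 CPM in WT skin. The groups did not overlap, and Slfn2 was lower in skin by a log2 change of -1.64 ± 0.15 (edgeR adjusted p = 2.18e-07).

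Of the long members, Slfn5, an interferon-induced gene, was at 77.7, 84.6 and 66.5 CPM in LN and 14.9, 15.3 and 14.7 CPM in WT skin. The 3 skin libraries lay within 1 CPM of each other and below every LN library (log2 change -2.35 ± 0.17, edgeR adjusted p = 1.23e-08). Slfn8 was at 116, 105 and 97.8 CPM in LN and 32.7, 34.3 and 24.2 CPM in skin, without overlap (-1.81 ± 0.18, edgeR adjusted p = 5.28e-07). Slfn9 was at 11.0, 14.0 and 21.5 CPM in LN and 5.06, 5.04 and 5.76 CPM in skin (-1.55 ± 0.28, edgeR adjusted p = 2.13e-04). Its LN libraries varied more than its skin libraries did, and LN replicate 3 was the highest.

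The intermediate members were rare. Slfn3 was at 3.62, 3.20 and 3.64 CPM in LN and 2.03, 1.55 and 1.94 CPM in WT skin, which did not overlap but missed the threshold (-0.92 ± 0.51, edgeR adjusted p = 0.133). Slfn4, known from myeloid cells in the mouse, was at 0.675, 0.825 and 1.22 CPM in LN and 0.662, 0.442 and 1.83 CPM in skin. Those groups overlapped, and with 1 to 45 counts per library over the series no difference was detectable at this depth (0.10 ± 0.84, edgeR adjusted p = 0.926). The groups did not overlap for 6 of 7 members, against 63.4% of all genes tested.

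**Figure D1:**
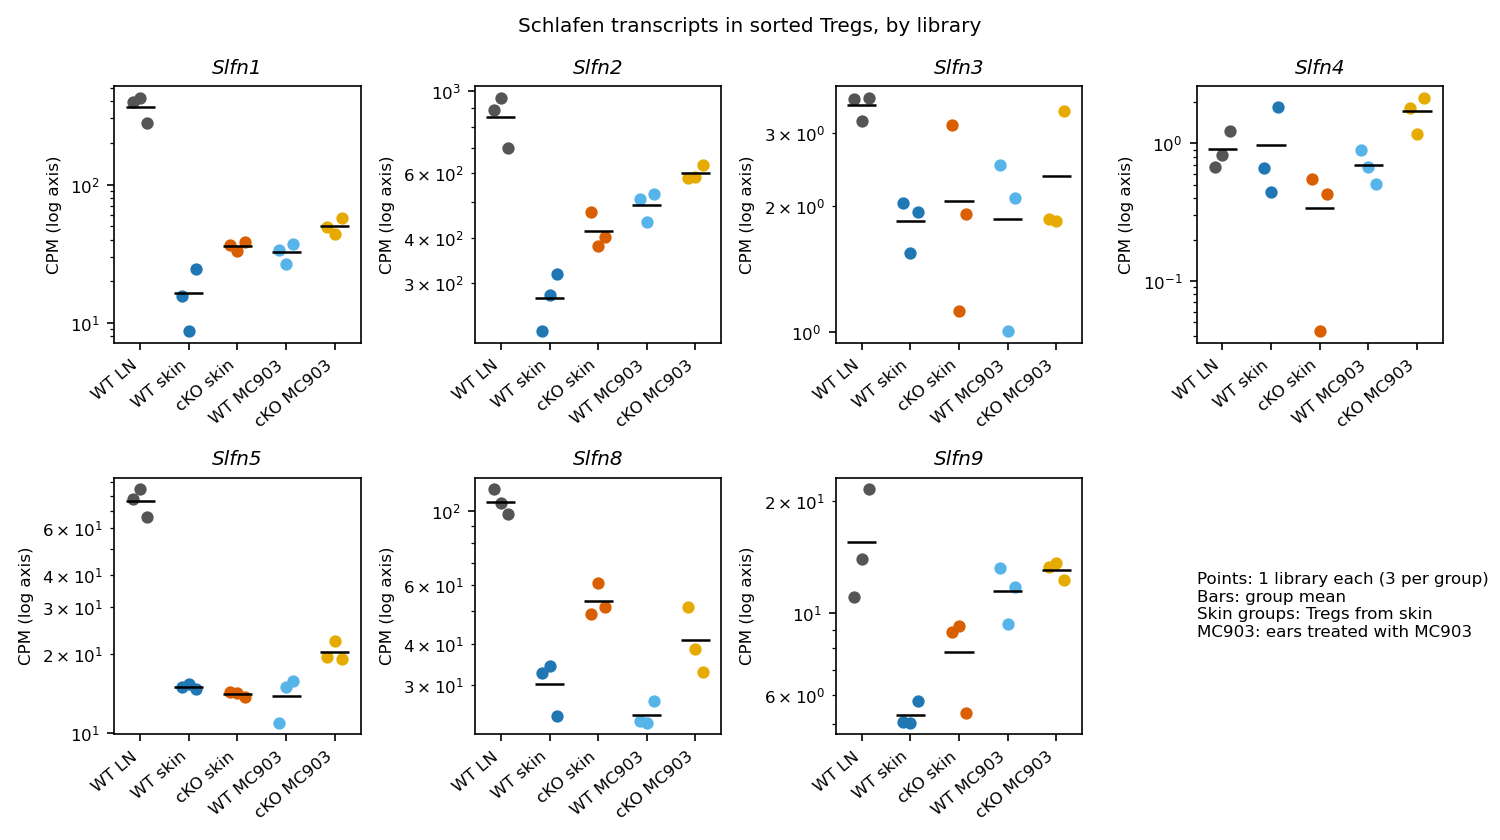
CPM of each Schlafen gene (vertical log axis, scales differ between panels) in 15 libraries. Points are libraries, 3 per group, and bars are group means; for Slfn1, Slfn2, Slfn5 and Slfn8 every LN library lies above every skin library.

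WT Tregs from MC903 skin, compared with the same LN libraries, had 4 of 7 members lower, where 24.5% of all genes tested were lower and 51.1% were called either way. Slfn1 (-3.49 ± 0.29), Slfn5 (-2.46 ± 0.17), Slfn8 (-2.12 ± 0.18) and Slfn2 (-0.79 ± 0.15) passed, with edgeR adjusted p from 1.08e-08 to 3.60e-04. Slfn9 was at -0.44 ± 0.27 and did not pass (adjusted p = 0.186). Slfn3 was at -0.90 ± 0.51 and did not pass in edgeR (adjusted p = 0.153) but did in limma-voom (adjusted p = 0.0398). Groups did not overlap for 5 of 7 members, against 62.9% of all genes. Because both comparisons use the LN libraries, their values stand side by side and are not independent.

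The authors' deposited table, which gives LN over skin, lists log2 fold changes of 4.30 for Slfn1, 1.58 for Slfn2, 2.28 for Slfn5, 1.74 for Slfn8 and 1.45 for Slfn9. It lists Slfn3 at 0.80 with an adjusted p of 0.117 and Slfn4 at -0.11 with an adjusted p of 0.890.

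Foxp3 was higher in skin (2.57 ± 0.26, edgeR adjusted p = 6.69e-07), and markers of other cells moved with tissue. Summed over 13 B cell markers, the LN libraries held 257, 222 and 825 CPM and the WT skin libraries 8.46 to 13.4 CPM, and 12 of 12 tested were lower in skin. Ms4a1, Pax5, Cr2, Bank1 and Fcrla were among the markers at 0 in all 3 WT skin libraries. LN replicate 3 held the most B cell transcript. Of the LN libraries it had the lowest Slfn1, Slfn2, Slfn5 and Slfn8 and the highest Slfn3, Slfn4 and Slfn9. It also had the highest sums of macrophage and dendritic cell markers (2222 CPM) and of cell cycle genes (2530 CPM) among them. Most of the macrophage and dendritic cell sum in LN was Cd74, at 990 ± 647 CPM (mean ± SD) of a mean sum of 1235 CPM. Cd68 averaged 2.64 CPM and C1qa 1.71 CPM there, so that sum does not by itself show macrophages. Keratinocyte markers summed to 30.7 to 32.9 CPM in LN and 429 to 820 CPM in WT skin, and Krt15, Trp63, Lor and Dsg1a were at 0 in LN. With LN replicate 3 and WT untreated skin replicate 2 left out together, an alternative chosen after seeing the data, the same 5 members were called, at -4.35 for Slfn1, -1.78 for Slfn2, -2.46 for Slfn5, -1.96 for Slfn8 and -1.21 for Slfn9. The part of other cells in these differences was not tested, and in sorted bulk samples fewer cells of a type and less RNA per cell cannot be told apart.

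Genes known to act around the family were counted from lists. Between WT skin and LN, 57.6% of all genes tested were called either way and 28.8% were lower in skin. Of 26 interferon-stimulated genes, 24 were lower and 1 was higher in WT skin than in LN, with a median log2 change of -2.75. Usp18, which restrains interferon receptor signalling (-5.24 ± 0.42), Ifit2 (-4.19 ± 0.29) and Xaf1 (-3.19 ± 0.29) were among them. Of 15 interferon receptor and signalling genes 5 were higher and 5 lower: Jak2, a kinase of the interferon-gamma receptor, was at 3.73 ± 0.24 and Ifngr1, a chain of that receptor, at 2.44 ± 0.22, while Irf9, a part of the factor that binds the ISRE, was at -1.07 ± 0.17.

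In the same comparison, of 20 T cell quiescence factors 9 were higher and 6 lower. Lef1 was at -3.56 ± 0.18 and Tob1, which restrains T cell proliferation, at 2.72 ± 0.16. Of 20 cell cycle genes 1 was higher and 10 were lower, where 57.6% of all genes tested were called either way. Their summed level was 1049, 1259 and 2530 CPM in the LN libraries and 1169 to 1438 CPM in WT skin, so only LN replicate 3 lay above the skin range. Of 10 genes for RNA cleavage and transfer RNA protection 2 were higher and 6 lower, among them Nsun2, which methylates transfer RNA (-1.87 ± 0.16). Of 7 tested genes that flank the cluster 6 were lower, with a median of -1.30. Rad51d (-1.52 ± 0.24) and Nle1 (-1.30 ± 0.28) were examples. All these edgeR values had adjusted p under 0.05.

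The comparison of genotypes asks what the Rora fl/fl allele changes in skin Tregs. In untreated skin 1 of 7 members, Slfn8, was higher in cKO, where 0.398% of all genes tested were higher and 0.803% were called either way. The median log2 change of the 7 was 0.56, against -0.0049 over all genes.

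Slfn8, a long member, was at 32.7, 34.3 and 24.2 CPM in the WT libraries and 49.2, 60.8 and 51.5 CPM in cKO. Every cKO library lay above every WT library (0.82 ± 0.18, 1.77-fold, edgeR adjusted p = 0.0376). That call did not hold with only the compared libraries in the fit (adjusted p = 0.132), in limma-voom (0.0563) or without any of 5 of the 6 libraries in turn. Those were WT replicate 1 (adjusted p = 0.0573) and 3 (0.138) and cKO replicate 1 (0.0623), 2 (0.141) and 3 (0.0943).

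Slfn1 was at 15.7, 8.71 and 24.6 CPM in the WT libraries and 36.3, 33.2 and 38.4 CPM in cKO. The groups did not overlap, but the difference missed the threshold in edgeR (1.14 ± 0.27, adjusted p = 0.0696) and passed it in DESeq2 (adjusted p = 0.00271). Without WT replicate 3, the highest WT library, edgeR gave 1.56 (adjusted p = 0.00881). Slfn2 was at 222, 279 and 318 CPM in the WT libraries and 470, 379 and 402 CPM in cKO, again without overlap (0.61 ± 0.15, edgeR adjusted p = 0.0696, DESeq2 adjusted p = 0.00738). Slfn9 was at 8.85, 9.23 and 5.35 CPM in cKO, which overlapped the WT range of 5.04 to 5.76 CPM (0.56 ± 0.28, edgeR adjusted p = 0.461). Slfn5 was at 14.3, 14.2 and 13.6 CPM in cKO and did not pass (-0.09 ± 0.16, adjusted p = 0.890). Slfn3, at 1.12 to 3.13 CPM, and Slfn4, at 0.0431 to 0.550 CPM in cKO, did not pass. Groups did not overlap for 4 of 7 members, against 13.6% of all genes tested.

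In MC903 skin 0 of 7 members passed between genotypes in edgeR, where 0.081% of all genes were higher and 0.258% were called either way, 35 of 13578, and 917 had an unadjusted p under 0.05. DESeq2 called 1 member, Slfn8 (adjusted p = 0.0132). Slfn8 was at 23.5, 23.2 and 26.9 CPM in the WT libraries and 51.5, 38.7 and 33.0 CPM in cKO, without overlap (0.74 ± 0.18, edgeR adjusted p = 0.126). The unadjusted edgeR p was under 0.05 for Slfn1 (0.0324), Slfn5 (0.00385) and Slfn8 (6.84e-04). Groups did not overlap for 5 of 7 members, against 16% of all genes.

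Averaged over both treatments, 3 of 7 members were higher in cKO (Slfn8, Slfn1 and Slfn2), where 0.884% of all genes tested were higher and 1.75% were called either way. Slfn8 differed by 0.78 ± 0.12 (1.72-fold, edgeR adjusted p = 0.00243), Slfn1 by 0.89 ± 0.19 (1.85-fold, adjusted p = 0.0257) and Slfn2 by 0.45 ± 0.10 (1.36-fold, adjusted p = 0.0391). The Slfn8 call held in all 19 alternatives tried, with adjusted p up to 0.00933. Slfn1 lost its call in 7, all of them fits that left out 1 library, with adjusted p up to 0.0684. Slfn2 lost its call in 11, with adjusted p up to 0.102; with the replicate number as a block its adjusted p was 0.0715. It was also lost without any 1 of the skin libraries other than WT untreated replicate 3 and cKO untreated replicate 2. The libraries whose removal ended the Slfn1 call were WT untreated replicate 1, cKO untreated replicates 1 and 3, WT MC903 replicates 1 and 2, and cKO MC903 replicates 1 and 3.

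Of 26 interferon-stimulated and 15 interferon signalling genes, 0 passed in the averaged comparison, where 1.75% of all genes tested were called either way. At that share few calls would fall in lists of this size, so their absence does not show that these genes were unchanged. In untreated skin 1 of 26 interferon-stimulated genes was higher in cKO, Ifit2 (1.23 ± 0.27, edgeR adjusted p = 0.0387). There 0.398% of all genes tested were higher and 0.803% were called either way. Of 20 quiescence factors 1 was higher in the averaged comparison, Satb1, a chromatin organiser of T cells (1.59 ± 0.24, edgeR adjusted p = 0.00237). The summed macrophage and dendritic cell markers ran from 649 to 1256 CPM in the WT libraries and 804 to 1595 CPM in cKO untreated skin, and from 471 to 607 and 732 to 1006 CPM after MC903. Cd74 alone averaged 770 CPM in WT and 985 CPM in cKO untreated skin. After MC903 it averaged 464 and 642 CPM, so it was most of the list's sum throughout. No gene of that list passed between genotypes. B cell markers stayed between 7.98 and 21.7 CPM in all 12 skin libraries. Of 14 tested keratinocyte markers 1, Sfn, was lower in cKO in the averaged comparison (-0.96 ± 0.12, edgeR adjusted p = 2.50e-04). The whole list summed to 429 to 820 CPM in WT and 382 to 521 CPM in cKO untreated skin. The part of these cells in the genotype differences was not tested.

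**Figure D2:**
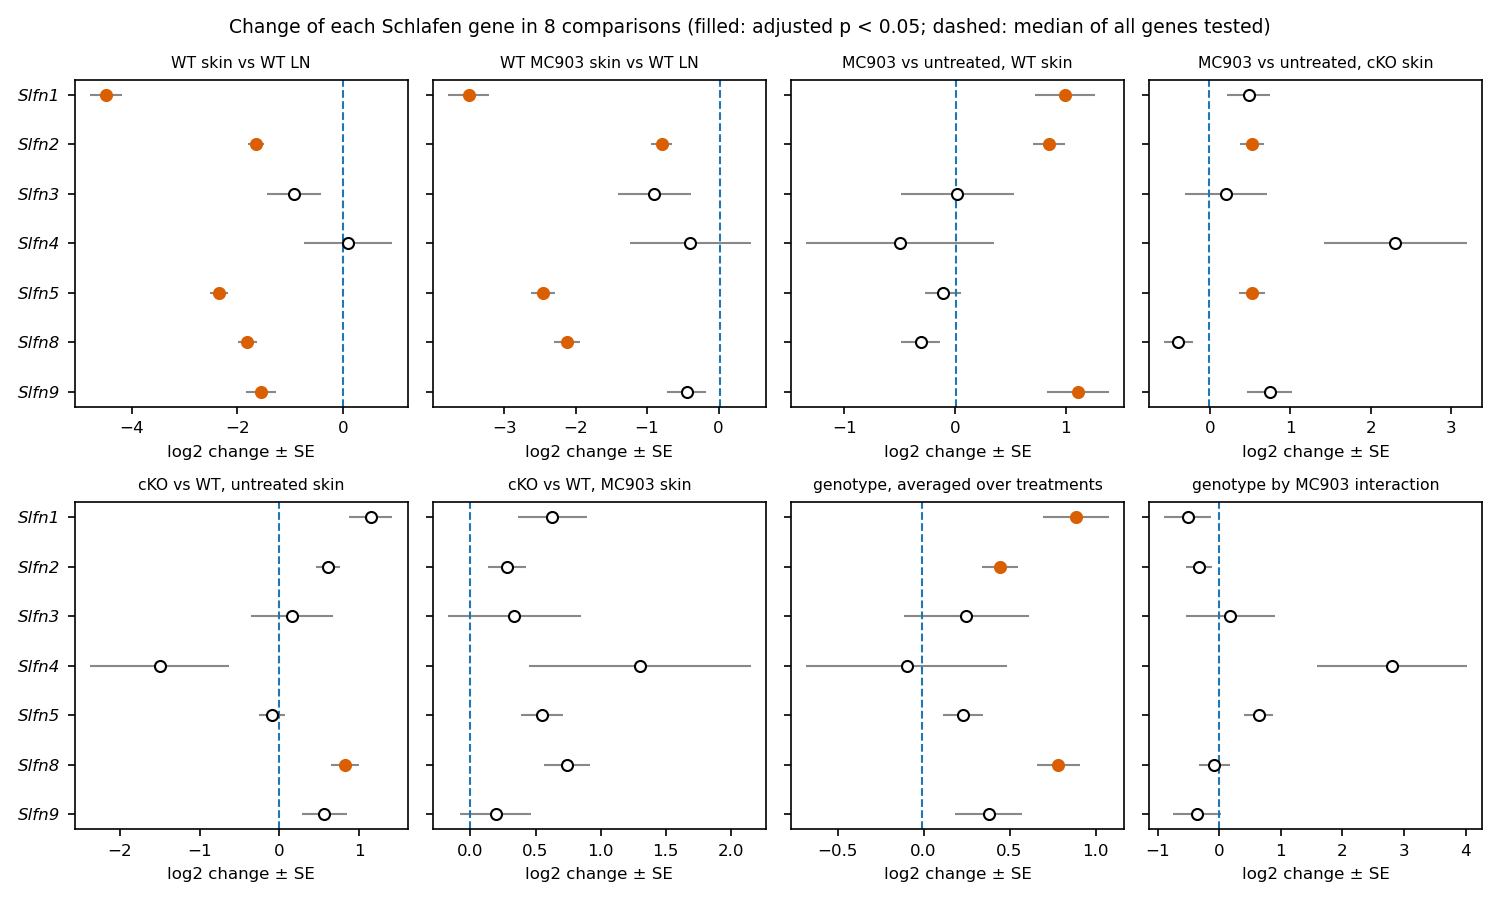
Log2 change with its SE (horizontal axis, scales differ) of the 7 genes in 8 comparisons. Filled points passed an adjusted p of 0.05 and the dashed line is the median of all genes tested; Slfn8, Slfn1 and Slfn2 are filled in the averaged genotype comparison.

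The comparison of treatments asks what MC903 changes in skin Tregs. In WT skin 3 of 7 members were higher after MC903 (Slfn1, Slfn2 and Slfn9), where 5.03% of all genes tested were higher and 10.5% were called either way. In cKO skin 2 of 7 were higher (Slfn2 and Slfn5), where 5.96% were higher and 11.3% were called either way. The median log2 change of the 7 was 0.023 in WT and 0.52 in cKO, against 0.011 and -0.010 over all genes.

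Slfn2 rose in both genotypes. In WT it was at 222, 279 and 318 CPM untreated and 511, 440 and 525 CPM after MC903 (0.85 ± 0.15, 1.80-fold, edgeR adjusted p = 0.00227), and this call held in all 13 alternatives. In cKO it was at 470, 379 and 402 CPM untreated and 581, 585 and 629 CPM after MC903 (0.52 ± 0.15, 1.44-fold, edgeR adjusted p = 0.0324). Neither pair of groups overlapped. The cKO call was lost in 6 of 13 alternatives, including the replicate block (adjusted p = 0.0517) and the fits without cKO untreated replicate 2 (0.134) or 3 (0.115) or without cKO MC903 replicate 1 (0.0662), 2 (0.0826) or 3 (0.0986). Ordered by level over the 5 groups, Slfn2 ran from WT skin through cKO skin, WT MC903 and cKO MC903 to LN, and only the neighbours cKO skin and WT MC903 overlapped.

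Slfn1 was at 15.7, 8.71 and 24.6 CPM in untreated WT skin and 33.7, 26.7 and 37.0 CPM after MC903, without overlap (0.99 ± 0.27, edgeR adjusted p = 0.0310). The call was lost in 6 of 13 alternatives, among them the fits without WT untreated replicate 1 (adjusted p = 0.0840) or 2 (0.0769) and without WT MC903 replicate 1 (0.0866) or 3 (0.0984). In cKO it was at 36.3, 33.2 and 38.4 CPM untreated and 49.2, 43.8 and 57.6 CPM after MC903, which did not overlap but did not pass (0.48 ± 0.27, edgeR adjusted p = 0.263).

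Slfn9 was at 5.06, 5.04 and 5.76 CPM in untreated WT skin and 13.2, 9.29 and 11.7 CPM after MC903 (1.11 ± 0.28, 2.16-fold, edgeR adjusted p = 0.0192). All treated libraries lay above all untreated ones. The call was lost in 6 of 13 alternatives, among them the fits without WT untreated replicate 1 (adjusted p = 0.0541) or 2 (0.0577) and without WT MC903 replicate 1 (0.0754) or 3 (0.0558). In cKO it was at 8.85, 9.23 and 5.35 CPM untreated and 13.3, 13.6 and 12.3 CPM after MC903, without overlap (0.74 ± 0.28, edgeR adjusted p = 0.0935). In limma-voom Slfn9 passed in cKO as well (0.84, adjusted p = 0.0499).

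Slfn5 was called in cKO and not in WT, and the difference between the genotypes did not pass its own test. In cKO it was at 14.3, 14.2 and 13.6 CPM untreated and 19.4, 22.3 and 19.1 CPM after MC903 (0.53 ± 0.16, edgeR adjusted p = 0.0471), a call lost in 11 of 13 alternatives with adjusted p up to 0.173, including each of the 6 fits that left out 1 cKO library. In WT it was at 14.9, 15.3 and 14.7 CPM untreated and 10.9, 14.9 and 15.7 CPM treated, which overlapped (-0.11 ± 0.16, adjusted p = 0.723). The interaction was 0.64 ± 0.23 (edgeR adjusted p = 0.866).

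Slfn4 was at 0.550, 0.0431 and 0.430 CPM in untreated cKO skin and 1.82, 1.16 and 2.15 CPM after MC903. The groups did not overlap, but the difference did not pass in edgeR (2.31 ± 0.89, adjusted p = 0.106) and passed in DESeq2 (adjusted p = 0.0373) and limma-voom (0.0288). Of 16 tested macrophage and dendritic cell markers 4 were higher after MC903 in cKO (Itgam, Cd68, C1qa and Mrc1) and 12 were not called. The median log2 change of the 16 was 2.03, where 5.96% of all genes tested were called higher. Their summed level was 804 to 1595 CPM untreated and 732 to 1006 CPM treated. Most of that sum was Cd74, which averaged 985 CPM of a mean sum of 1141 CPM untreated and 642 of 881 CPM treated. Granulocyte and mast cell markers summed to 4.28 to 5.59 CPM untreated and 18.3 to 51.3 CPM treated in cKO. Retnlg, Cpa3, Cma1, Tpsb2, Mcpt8 and Fcer1a were at 0 in untreated cKO skin. Their part in the Slfn4 values was not tested. In both genotypes Sfn was lower after MC903 (-1.64 ± 0.17 in WT and -2.04 ± 0.17 in cKO), with keratinocyte markers summing to 190 to 489 CPM in WT and 163 to 320 CPM in cKO MC903 skin. Of 13 tested fibroblast and endothelial markers 1 was called after MC903 in each genotype, Pecam1. It was higher (1.79 ± 0.21 and 1.06 ± 0.20, edgeR adjusted p = 1.10e-04 and 0.00414). Between WT skin and LN, 8 of the 13 were higher in skin, whereas Pecam1 was lower in skin (-2.36 ± 0.21). In LN Pecam1 averaged 132 CPM of a mean list sum of 137 CPM, so it was nearly the only gene of the list found there. Its level therefore cannot be read as a measure of endothelial cells here. The part of other cells in the MC903 differences was not tested, nor was the source of Pecam1.

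No gene of 13578, and so 0 of 7 members, passed the genotype by MC903 interaction in edgeR (0% called), with 765 genes at an unadjusted p under 0.05 and 17 genes called by DESeq2. Groups did not overlap between treatments for 3 of 7 members in WT, against 28.2% of all genes, and for 5 of 7 in cKO, against 33.4%.

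Of 26 interferon-stimulated genes 2 were higher and 3 lower after MC903 in WT, where 10.5% of all genes were called, among them Eif2ak2, the double-stranded RNA kinase (1.01 ± 0.19), Isg15 (-0.89 ± 0.21) and Bst2 (-0.86 ± 0.19), and in cKO 3 were higher and none lower, where 11.3% of all genes were called. Of 15 interferon signalling genes 2 were lower in WT and 4 in cKO, with Irf1, an interferon-induced transcription factor, at -1.16 ± 0.17 and -1.14 ± 0.17. Of 20 quiescence factors 6 were higher and 7 lower in WT, and 4 higher and 7 lower in cKO. In WT Lef1, a transcription factor of resting T cells (1.13 ± 0.16), rose and Tsc22d3 (-1.20 ± 0.17) fell. All these edgeR values had adjusted p under 0.05, and none of the 7 tested flanking genes passed.

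**Figure D3:**
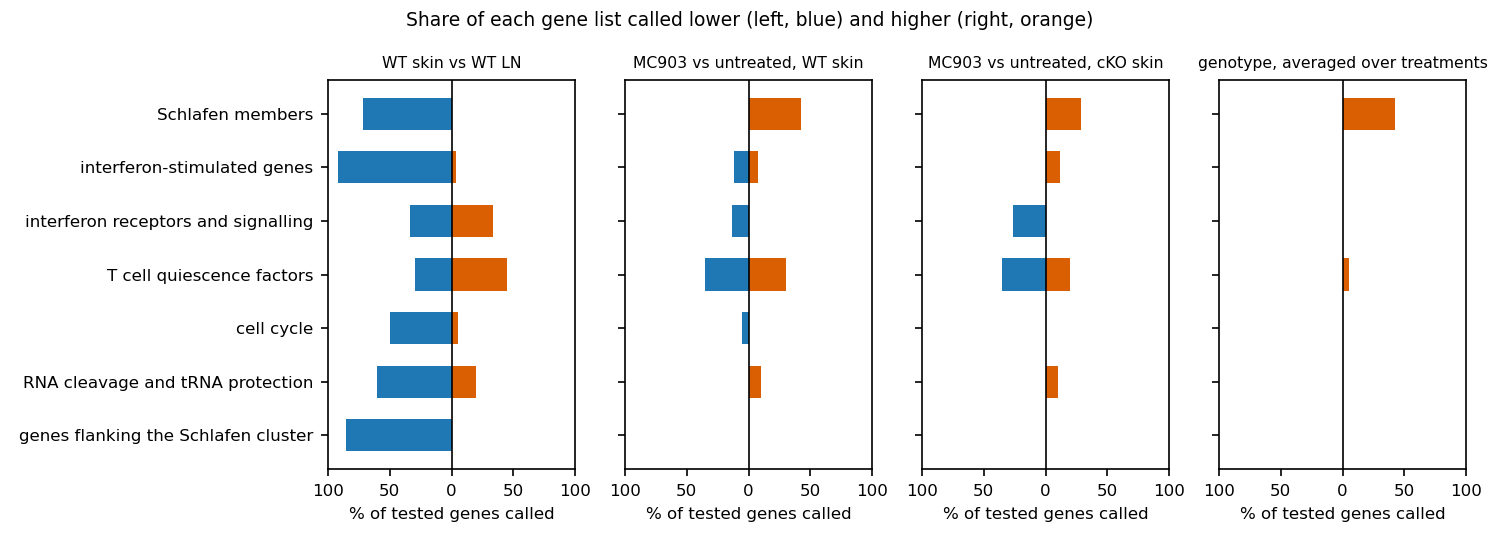
Share of tested genes called lower (left, blue) and higher (right, orange) for the 7 Schlafen genes and 6 gene lists in 4 comparisons (horizontal axis, percent of tested genes). The Schlafen bar points left for WT skin against LN and right in the other panels.

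The neighbouring long members Slfn8 and Slfn9, whose promoter windows are the most alike of the family, had different levels relative to each other in untreated and in MC903 skin. Slfn8 was not called after MC903, at 23.2 to 26.9 CPM against 24.2 to 34.3 CPM untreated in WT (-0.31 ± 0.18, edgeR adjusted p = 0.294) and 33.0 to 51.5 CPM against 49.2 to 60.8 CPM in cKO (-0.39 ± 0.18, adjusted p = 0.163). Slfn9 CPM as a percent of Slfn8 CPM was 9.49%, 13.2% and 22.0% in LN, 15.5%, 14.7% and 23.8% in untreated WT and 18.0%, 15.2% and 10.4% in untreated cKO skin. After MC903 it was 56.2%, 40.1% and 43.6% in WT and 25.9%, 35.1% and 37.2% in cKO. All 6 treated libraries lay above all 9 untreated ones. This ratio was chosen after its values were seen and is given without a test. Over the 12 skin libraries Pearson's r between Slfn8 and Slfn9 log2 CPM was -0.023, while it was 0.90 between Slfn2 and Slfn9 and 0.86 between Slfn1 and Slfn2. These r values describe 12 libraries of 4 groups and carry the group differences.

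**Figure D4:**
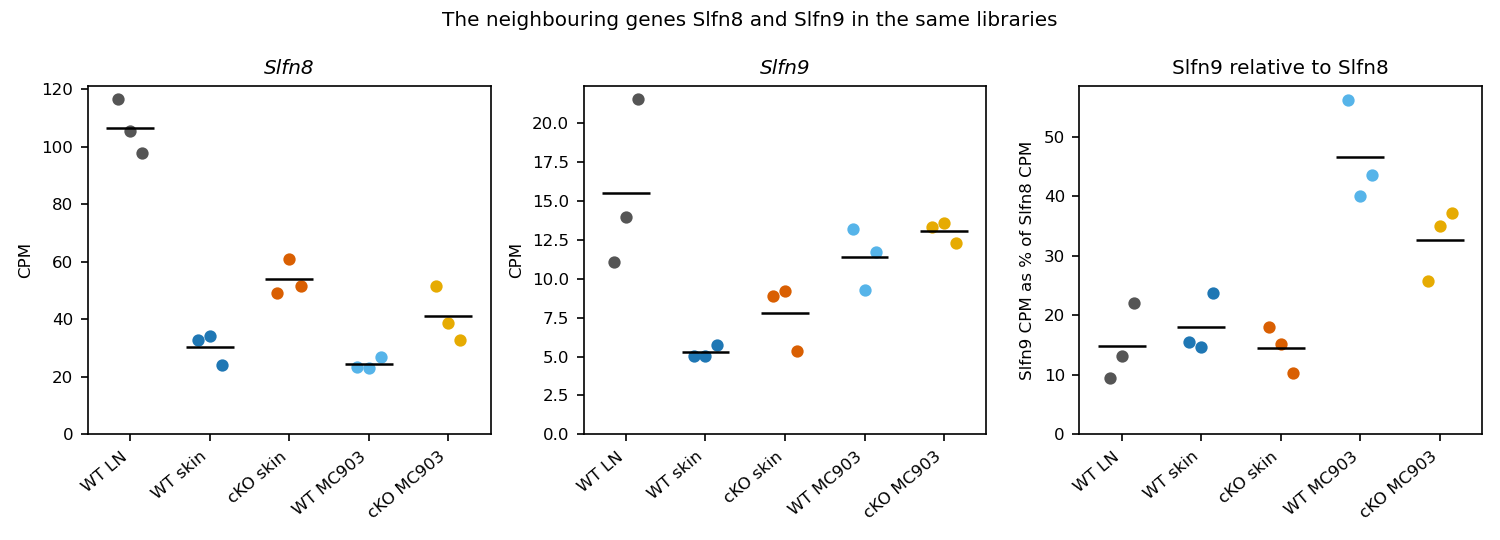
Slfn8 and Slfn9 CPM and Slfn9 as a percent of Slfn8 (vertical axes from 0) in 15 libraries, with points for libraries and bars for group means. The ratio is 25.9% to 56.2% in MC903 skin and 9.49% to 23.8% elsewhere.

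Near-identical sequence limits some of these values. Of the 75-base stretches in the exons of each gene, 7.25% of Slfn8 and 5.98% of Slfn9 occur in other genes, mainly in Slfn10-ps. The share was 9.87% for Slfn3, 8.72% for Slfn5, mostly in its antisense partner Slfn5os, 3.12% for Slfn4, 1.7% for Slfn2 and 0% for Slfn1. Slfn10-ps was at 26.1 to 49.4 CPM and passed in none of the 8 comparisons. Slfn5os held at most 1 count, Slfn14 at most 10 and Slfnl1 at most 1 count in any library, and these were not tested.

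The genes most like each member over the 12 skin libraries were found by Pearson's r of log2 CPM among 7893 genes. For Slfn2 they were Tnfrsf8, the receptor CD30 (0.95), Ifitm2 (0.95) and Pnkd (0.94), and for Slfn1 Gpr171 (0.94), Asah1 (0.94) and Mier1 (0.94). For Slfn8 they were Lta4h, which makes leukotriene B4 (0.93), Il10ra, a chain of the interleukin-10 receptor (0.92) and Sytl3 (0.92). For Slfn9 they were Tsnax, a partner of a nucleic-acid-binding protein (0.95), Htatip2 (0.95) and Tigd2 (0.95). For Slfn5 they were Lmo4 (0.85), Tmem126a (0.82) and Sepp1 (0.81), for Slfn4 Dnajb11 (0.89), Xpr1 (0.86) and Pla2g16 (0.86), and for Slfn3 Gla (0.75), Laptm4a (0.73) and Gbp2 (0.72). With the LN libraries included, Lta4h was again first for Slfn8 (0.95), whereas r fell to 0.16 for Tnfrsf8 with Slfn2 and to 0.14 for Gpr171 with Slfn1. It turned negative for Sytl3 (-0.67) and Il10ra (-0.13) with Slfn8, Mier1 with Slfn1 (-0.66), Gla with Slfn3 (-0.54) and Lmo4 with Slfn5 (-0.51). For the genes named with Slfn4 and Slfn9 r stayed between 0.69 and 0.86, and with Slfn5 it was 0.81 for Tmem126a and 0.80 for Sepp1. The order also depended on the measure. By Spearman's rank correlation over the 12 skin libraries, the first-named genes Tnfrsf8 and Lta4h again ranked 1. Dnajb11 ranked 27, Gpr171 110, Gla 132, Lmo4 187 and Tsnax 264. Slfn3 and Slfn4 were the rarest members, so their r values rest on low counts.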

How the data were processed

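RNA from sorted Tregs was made into libraries with SMART-Seq v4 and read as 75 bp single-end reads, per the labels' protocols. The submitters' processing notes name TopHat2 2.0.6 and mm9. The gene counting step and its use of strand are not given in the sources used here, so it is unknown how reads of overlapping or near-identical genes were divided. The authors deposited raw counts per gene and library. Their second deposited table compares LN with skin and holds, per the file headers, the signal averaged after normalisation, log2 fold changes, their SE, a score (change over SE) and p-values before and after adjustment.

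The test of the deposited counts used edgeR 4.0.16 under R 4.3.3: filterByExpr (13578 of 24015 genes kept), TMM factors (0.903 to 1.26) and 1 robust quasi-likelihood fit to all 15 libraries, with F tests of each contrast and Benjamini-Hochberg adjusted p over the whole table. Genes with adjusted p under 0.05 count as called. The biological coefficient of variation was 37.2%. SE is the log2 change over the root of its F. Alternatives used DESeq2 1.42.0, limma 3.58.1 (voom with sample weights), other scaling and filters, a replicate block, the compared libraries alone, and each library left out. The procedure was also run on counts simulated from its own fitted model for some of the comparisons, which does not test the model's assumptions. Every replicate pair differed by more than sampling noise, with a chi-square per degree of freedom of at least 14.2. Without molecular identifiers, PCR copies are counted as separate reads.

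The 7 members are always named, the other genes being, per list and comparison, up to 4 called genes of smallest adjusted p, and per member the 3 most alike in r with mean log2 CPM at or over 3. Some genes that this rule names are not reported here. Between WT skin and LN, 8 tested markers of CD8, NK, gamma-delta T and innate lymphoid cells gave 5 lower, 13 fibroblast and endothelial markers gave 8 higher and 1 lower, and 9 Treg and T cell markers 5 higher and 4 lower. Of all genes tested, 57.6% were called either way there. Members and lists were chosen with earlier results of these data known. Exon lengths and 75-base stretches came from GENCODE vM21 on GRCm38, a build other than that of the alignment, and promoter windows from RefSeq.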

Additional observations from a re-analysis of the deposited data

How the results depend on the processing

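Alternatives changed the number of members called as follows. For WT skin against LN and WT MC903 skin against LN the counts stayed at 5 and 4, including in all fits that left out 1 library, except that limma-voom called 5 in the latter (Slfn3 as well). For cKO against WT in untreated skin the count of 1 became 0 with only the compared libraries, 3 in DESeq2 and 0 in limma-voom, and ran from 0 to 1 with 1 library left out. In MC903 skin the count of 0 became 1 in DESeq2 and stayed at 0 with any library left out. For MC903 in WT the count of 3 became 1 with only the compared libraries and 1 in limma-voom, and ran from 1 to 3 with 1 library left out. For MC903 in cKO the count of 2 became 1 with relative log expression factors, 1 without a filter, 1 with only the compared libraries, 3 in DESeq2 (Slfn2, Slfn4 and Slfn5), 3 in limma-voom (Slfn2, Slfn4 and Slfn9), and 0 to 1 with 1 library left out. For the averaged genotype effect it ran from 1 to 3 with 1 library left out, and for the interaction it stayed at 0. The cause of these shifts was not tested, and fits with a library left out hold fewer samples.

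The numbers of all genes called also moved: from 109 to 321 (DESeq2) for genotype in untreated skin, from 35 to 136 (DESeq2) and 95 (limma-voom) in MC903 skin, from 237 to 456 (DESeq2) averaged, from 1421 to 541 (compared libraries only) for MC903 in WT, and from 1529 to 2668 (limma-voom) in cKO. With 1 library left out they ran from 60 to 133 for genotype in untreated skin, 22 to 31 in MC903 skin, 159 to 223 averaged, 767 to 1410 for MC903 in WT and 645 to 1895 in cKO.

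Of the member values, 25 changed sign, none of them a called value. Slfn4 in skin against LN went to -0.072 with the replicate block and ran from -0.72 to 0.45 with 1 library left out. Slfn3 went to -0.13 (limma-voom) for genotype in untreated skin, and to -0.035 (limma-voom) and -0.049 (replicate block) for MC903 in WT. The other changes of sign came with 1 library left out. Slfn3 then ran from -0.27 to 0.46 for genotype in untreated skin, -0.014 to 0.60 in MC903 skin, -0.24 to 0.32 for MC903 in WT, -0.15 to 0.63 in cKO and -0.18 to 0.61 for the interaction. Slfn4 ran from -0.84 to 0.32 for MC903 in WT and -0.35 to 0.31 for the averaged genotype effect, Slfn5 from -0.21 to 0.043 for MC903 in WT, and Slfn8 from -0.28 to 0.057 for the interaction.

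Among 30 same-numbered pairs of libraries in different groups, 3 had a correlation of deviations over 0.1 (range -0.28 to 0.22). Among 60 other-numbered pairs 8 did (range -0.15 to 0.22). The numbers thus gave no sign of pairing over the series, and pairing of only some groups was not tested. With the numbers as a replicate block, the members called were 0 for MC903 in cKO and 2 for the averaged genotype effect. At 1 to 45 counts per library, depth limits what Slfn4 can show, and the filter of 50 counts in 3 libraries removed it.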
